A study of Schizosaccharomyces pombe with 4 samples.

Results

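The windows described here lie on solitary long terminal repeats (LTRs) of fission yeast, Schizosaccharomyces pombe. They are the windows of the authors' comparison of small RNA between the strain labelled ABP1d and the wild type (WT) that overlap, by at least 1 base, an LTR that the RefSeq annotation of ASM294v3 places, on the 3 nuclear chromosomes, more than 500 bases from any of the 13 Tf2 genes. That rule uses positions only and no measured value, and it found 464 of the 4012 windows of the comparison. The annotation holds 238 LTRs, of which 213 are solitary by this distance and 25 flank a Tf2 gene, and 113 of the 213 solitary LTRs (53.1%) carried at least 1 window. The study holds 2 small RNA libraries labelled WT and 2 labelled ABP1d, from untreated, exponentially growing cells in rich medium. The name ABP1d is the only genotype given for the mutant, and no further allele or strain background is stated. The authors pooled the libraries of a strain into 1 value, so no spread between libraries can be given, and all intervals below cover counting error only.

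An LTR is the direct repeat at either end of a retrotransposon and carries signals for starting and ending its transcript. When the LTRs of an element recombine with each other, the body is lost and a solitary LTR stays behind. The fission yeast genome keeps full-length Tf2 elements and many more such remnants, including LTRs of the older Tf1 family. Abp1, encoded by the gene named cbp1 in the annotation, is a homolog of the mammalian centromere protein CENP-B and derives from a transposase of the pogo type. It is known to bind LTRs and, with its relatives Cbh1 and Cbh2, to bring histone deacetylases to them. The series title names repression of cryptic transcription at Tf2 and rRNA gene repeats as its subject.

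The windows cluster at the same places in LTR after LTR, so the stretch that carries most of them is shown first. It runs from position 132 to position 334 of the 349-base 3′ LTR of Tf2-1, at chrI:1470030-1470232 on the plus strand of ASM294v3, and capitals mark the windows listed by the authors inside this copy.

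Tf2-1 LTR, 132 to 334: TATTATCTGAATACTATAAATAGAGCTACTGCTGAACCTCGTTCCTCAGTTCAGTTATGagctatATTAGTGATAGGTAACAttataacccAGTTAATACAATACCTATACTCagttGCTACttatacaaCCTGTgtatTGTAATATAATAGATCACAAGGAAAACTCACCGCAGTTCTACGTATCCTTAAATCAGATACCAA

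The next lines show windows on solitary LTRs at the first stretch in capitals above. They are printed on the LTR strand, and capitals here mark 16 bases that all of them hold. The g before the capitals is shared by all of them as well. The lines are ordered by length, with the number of solitary LTR windows of that sequence and the coordinates of 1 copy in the sentences that follow.

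59 bases: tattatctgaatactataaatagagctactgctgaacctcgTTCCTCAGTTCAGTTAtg

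45 bases: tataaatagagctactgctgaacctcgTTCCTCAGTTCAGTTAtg

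23 bases: cctcgTTCCTCAGTTCAGTTAtg

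19 bases: tcgTTCCTCAGTTCAGTTA

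18 bases: gTTCCTCAGTTCAGTTAt

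The 59-base sequence was listed at 13 places, for example chrI:2012129-2012187 on LTR34, with 212 ABP1d reads and 1 WT read at each. The 45-base sequence was listed at 3 places, such as chrII:3283019-3283063, with 177 ABP1d reads and 0 WT reads. The 23-base sequence was listed at 16 places, such as chrI:98764-98786, with 158 to 160 ABP1d reads and 0 WT reads. The 19-base sequence was listed at 4 places, such as chrI:21157-21175, with 133 to 135 ABP1d reads and 0 WT reads. The 18-base sequence, at chrI:4939801-4939818, held 21 ABP1d reads and 0 WT reads. Equal sequences thus held nearly equal reads wherever they lay in the genome, and most of the reads of this place were already present in windows of 19 bases.

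In the comparison of the strains, the listed small RNA over solitary LTRs was more abundant in ABP1d. All 464 windows were higher in ABP1d than in WT by reads scaled to the totals, where 82.9% of all windows of the comparison were, and 0 were lower, where 17.1% of all windows were. In WT, 305 of the 464 windows (65.7%) had no read, compared with 42.7% of all windows. All windows include these 464 and the 1132 on Tf2 elements, some with the same sequences, so they are no separate background. Of the 929 Tf2 windows off its LTRs, 87.3% had no WT read. Shares with these groups left out are not given here. The comparison lists only windows with a deposited p of at most 0.0494 and at least 10 reads over both strains, so windows without WT reads entered through their ABP1d reads, and the 100 solitary LTRs without a window have no value. Reads per window ranged from 10 through a median of 26 to 895 in ABP1d, and from 0 through a median of 0 to 45 in WT. As RPKM, in which reads are scaled to window length and to the strain's total, the values ran from 24.7 through a median of 92.4 to 989 in ABP1d and from 0 to 36.2 in WT. On this scale the ranges overlapped only through a single WT value, that of a window on a tRNA gene. Of the other 463 windows, the highest WT count was 11 reads.

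The fold difference was set by the few WT reads. With a WT count of 0 replaced by 3 reads, which gives a lower bound for the ratio, the median log2 ratio of ABP1d to WT over the 464 windows was 2.45, and over all 4012 windows it was 2.09. At least 10-fold more reads in ABP1d, on the same basis, were found in 160 windows (34.5%), against 25.5% of all windows, which again include the solitary LTR and Tf2 windows. Copies of a sequence count separately in all these shares. With each sequence counted a single time, 61 of 114 solitary LTR windows had no WT read, and no such share is given for all windows. In the 159 windows where WT had reads, log2 ratios ran from 1.65 through a median of 4.44 to 7.49. Reads summed over the 114 distinct sequences of all 464 windows came to 13968 in ABP1d and 275 in WT, or 586 and 19.0 RPM when scaled to the strain's total alone. Each sequence entered with the highest count among its copies in each strain. That is a ratio of 30.9 (exact 95% binomial interval 27.4 to 34.9). Many of these sequences overlap and share reads, so this interval is too narrow. Taking each place of a complete LTR a single time, the 8 windows that lie inside the Tf2-1 3′ LTR held 732 and 13 reads, a ratio of 34.2 (19.9 to 64.5). A further window of 39 bases, with 134 ABP1d reads and 1 WT read, crosses the start of that LTR with 7 bases inside it and is not counted there.

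The direction depended on the scale for windows with few reads. The windows of the comparison were themselves shifted, with an all-window median of 2.09 on the log2 scale. Relative to that median, 247 windows were higher and 208 lower, and relative to spliceosomal snRNA windows 259 were higher and 205 lower. Relative to protein-coding windows 262 were higher and 157 lower, and relative to 5S rRNA windows 379 were higher and 85 lower. Of the lower windows, 159, 159, 156 and 85 respectively had no WT read, so that their ratio was only a bound. The summed ratio stayed above 1 on each of these scales, from 7.26 (6.44 to 8.21) relative to all windows to 12.96 (11.5 to 14.7) relative to 5S.

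**Figure D1:**
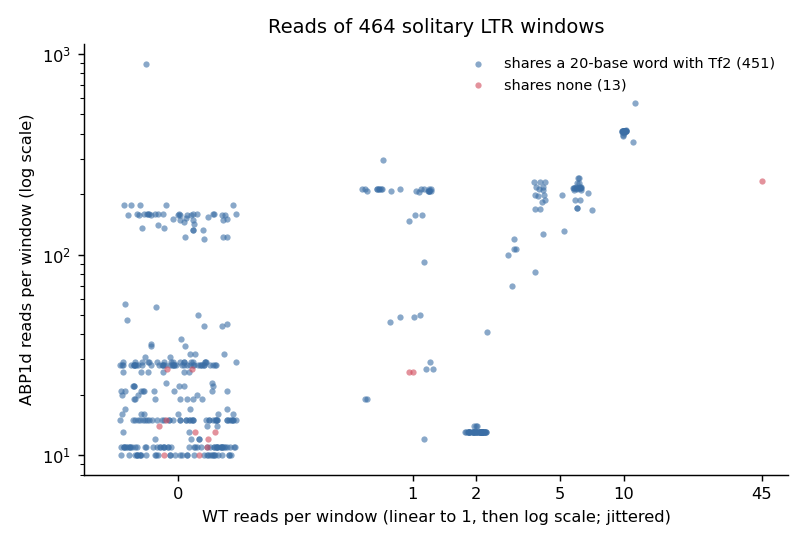
ABP1d reads (vertical axis, log scale) against WT reads (horizontal axis, linear to 1 and log beyond, with sideways jitter) for the 464 solitary LTR windows, 1 point each, pooled over 2 libraries per strain. Blue points share a 20-base word with a Tf2 element and red points share none; horizontal bands of points are copies of the same sequence, and the red point at 45 WT reads is the window on a tRNA gene.

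The solitary LTR windows carried the sequence of Tf2 elements. Of the 333 windows of at least 14 bases, 320 (96.1%) were found letter for letter in a Tf2 element, 309 of them in its LTRs. Over windows of any length, 451 of 464 (97.2%) shared a 20-base word with a Tf2 element or with the 500 bases beside it. For windows shorter than 20 bases, the word had to contain the window. Of the 2282 other windows on chromosomes I to III, off Tf2 elements and LTRs, 89 (3.90%) did. Those windows leave out every LTR, so their lower share was foreseeable and is no result of its own. Among all 213 solitary LTRs, with or without a window, only 72 shared no stretch of 20 bases with a Tf2 element. In 275 cases the whole sequence of a solitary LTR window was also that of a window listed on a Tf2 element, and 257 of these had the same number of reads as it in both strains. The largest difference was 3 reads. Among solitary LTRs alone, 48 sequences were listed at more than 1 place and made up 398 of the windows, and copies differed by at most 9 ABP1d reads and 2 WT reads.

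With the same counts at each copy, reads from a Tf2 element and reads from a solitary LTR of the same sequence cannot be told apart here. Windows on the LTRs beside Tf2 genes had similar values, but many of their sequences and reads are also in the solitary LTR sums. A value near 1 between these groups was therefore foreseeable and is no result of its own. Their 203 windows (23 distinct sequences) held 5178 ABP1d and 112 WT reads, a ratio of 28.1 (23.3 to 34.2), which is 0.910 times that of the solitary LTRs (0.726 to 1.15, an interval that includes 1). Windows on the Tf2 body off its LTRs, 929 in number with 85 distinct sequences, held 30208 and 34 reads. Their ratio of 540 (386 to 779) was 17.5 times that of the solitary LTRs (12.2 to 25.8). Both intervals are too narrow for the reason given above. The solitary LTR sum also holds the window on a tRNA gene and the windows of LTR191, which carry Tf2 body sequence (described below). With windows on tRNA, rRNA, snoRNA or snRNA genes left out, the solitary LTR ratio was 36.3. No comparison of the groups was made without LTR191.

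Whether a solitary LTR carried a window followed how long a stretch it shares with Tf2. Of 72 LTRs whose longest shared stretch was under 20 bases, 3 had a window. With 20 to 23 shared bases 14 of 33 LTRs had a window, with 24 to 29 bases 13 of 20, and with 30 to 49 bases 17 of 22. All 66 LTRs that shared at least 50 bases had a window. The 100 LTRs without a window shared at most 40 bases. Across the 213 LTRs, the longest shared stretch and the summed ABP1d reads had Spearman's rho = 0.874, given as a description, since LTRs that hold the same sequence hold the same reads.

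**Figure D2:**
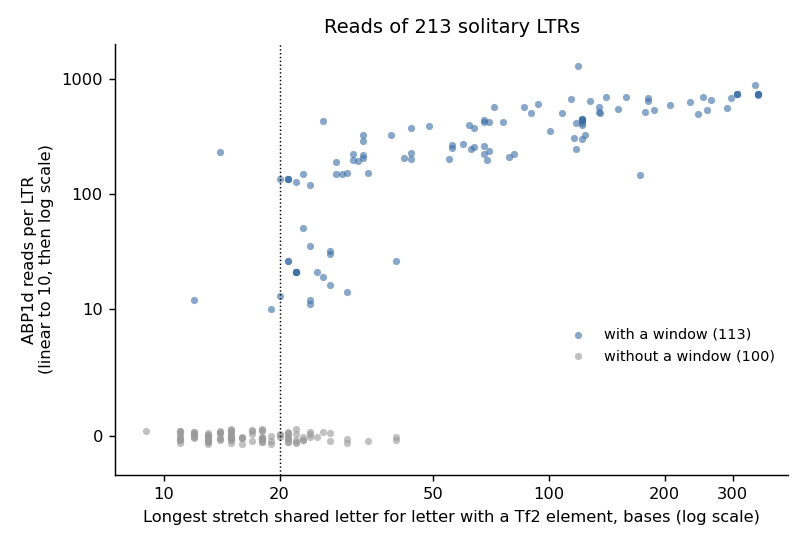
Summed ABP1d reads of each of the 213 solitary LTRs (vertical axis, linear to 10 and log beyond) against the longest stretch in bases that it shares letter for letter with a Tf2 element (horizontal axis, log scale). The dotted line stands at 20 bases. LTRs without a window have no listed value and are drawn spread slightly around 0. None of them shares more than 40 bases, and the LTR with 1293 reads is LTR191.

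Likeness over the whole LTR went less evenly with the presence of windows. The Tf2-1 LTR is the yardstick here, and the measure is the share of its 349 bases matched in the best alignment. Below 40% matched, 20 of 82 LTRs had a window, and 16 of these 20 had a single window. At 40 to 60% matched, 20 of 38 LTRs had a window, and at 60 to 80% fewer, 11 of 27. At 80 to 90% matched, 29 of 33 LTRs had a window, with a median of 6 windows and 325 ABP1d reads over the 33. LTRs without a window counted as 0 in these medians. At 90 to 95% all 9 LTRs had windows. From 95% upward, all 24 LTRs had between 5 and 10 windows, with 323 to 887 ABP1d reads and 3 to 15 WT reads. Spearman's rho with likeness was 0.733 for the number of windows across the 213 LTRs and 0.128 for the ratio of ABP1d to WT across the 81 LTRs with WT reads, whose ratios had a lower quartile of 29.6, a median of 33.5 and an upper quartile of 38.5.

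Along the LTR the windows fell at 8 places, of which the third and the eighth held 85.5% of the ABP1d reads of the windows inside the Tf2-1 3′ LTR. Counts of solitary LTRs at these places are over the 445 windows that could be placed by alignment. The third place, positions 132 to 190, had windows on 86 solitary LTRs, and its windows held from 11 through a median of 157 to 212 ABP1d reads and at most 1 WT read. The eighth place, positions 271 to 334, had windows on 85 solitary LTRs, with 10 to 569 ABP1d reads (median 198) and 0 to 11 WT reads (median 4). The ratio at the third place of Tf2-1 LTR copies (212 and 1 reads) was 129 (22.9 to 5110), and at the eighth place (414 and 10 reads) it was 25.1 (13.5 to 52.8). The first of these ratios was 5.11 times the other (exact conditional 95% interval 0.719 to 223), an interval that includes 1. Summed over the distinct sequences of solitary LTRs, windows in the middle of 3 equal parts of the LTR had a ratio of 162 (94.5 to 304; 3464 and 13 reads) and those in the last part 24.7 (21.6 to 28.4; 8708 and 214 reads). Those sums count overlapping sequences, and thus the same reads, repeatedly, so their intervals are too narrow.

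The other places held few reads. The second, at positions 78 to 100, had windows on 27 LTRs with at most 29 ABP1d reads, and the fifth, at 223 to 244, on 61 LTRs with at most 28. Both had 0 WT reads at every LTR. The fourth, at 197 to 213, was listed on 47 LTRs with 13 or 14 ABP1d reads and 2 WT reads each, a ratio of 4.25 (0.976 to 38.5) at 14 and 2 reads, whose interval includes 1. The first, sixth and seventh places were windows of 2 to 5 bases with 10 to 15 ABP1d reads and 0 WT reads. Windows this short cannot hold a whole read, so reads reach past the listed windows, and neighbouring windows may count the same read.

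**Figure D3:**
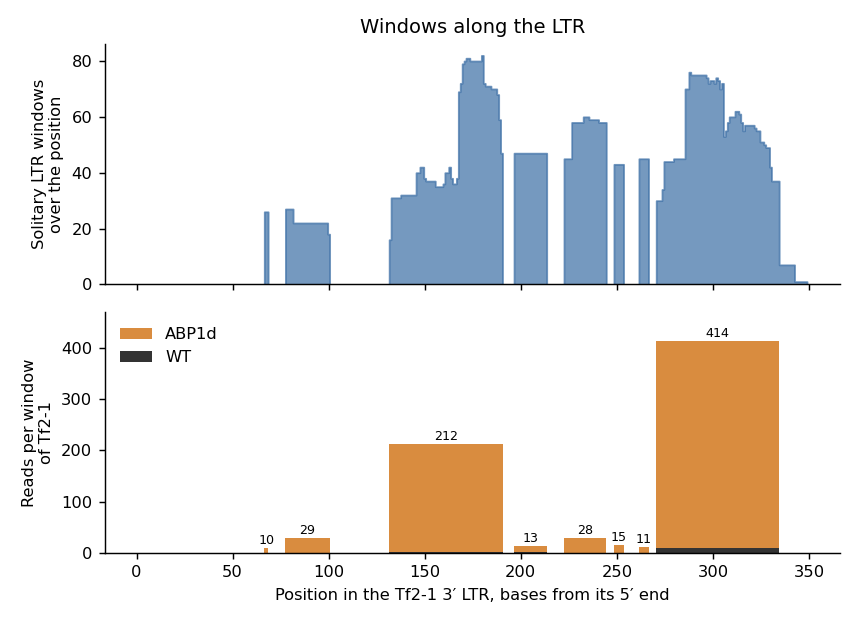
Top, number of solitary LTR windows over each position of the Tf2-1 3′ LTR (bases from its 5′ end), for the 445 windows that could be placed on it. Bottom, reads of the 8 windows that lie inside that LTR in ABP1d (orange, value printed) and WT (black, 0 to 10), drawn over their positions; the tallest bars are at the third (212) and eighth (414) places.

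At the third place, the 16 bases in capitals in the printed set occur 100 times in the assembly, 25 times in Tf2 elements, 75 times in solitary LTRs and 0 times elsewhere, and 95 of these lie under a window. Of the 73 solitary LTRs that hold them on the strand of the LTR, 67 had a window there, and of the 140 that do not, 18 had a window at the third place as well. The 6 of the 73 without a window there included all 5 whose stretch shared with the Tf2-1 LTR at this place was shorter than 20 bases. All 61 LTRs with at least 22 shared bases there had a window at this place. Longer windows mostly held more reads, from 133 to 135 at 19 bases to 212 at 59 bases. The rise was not steady, with 158 to 160 reads in the unchanged 23 bases, 153 at 25 bases and 159 at 26 bases. The 18-base window, with 21 reads, lacks the leading tc of the 19-base sequence.

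**Figure D4:**
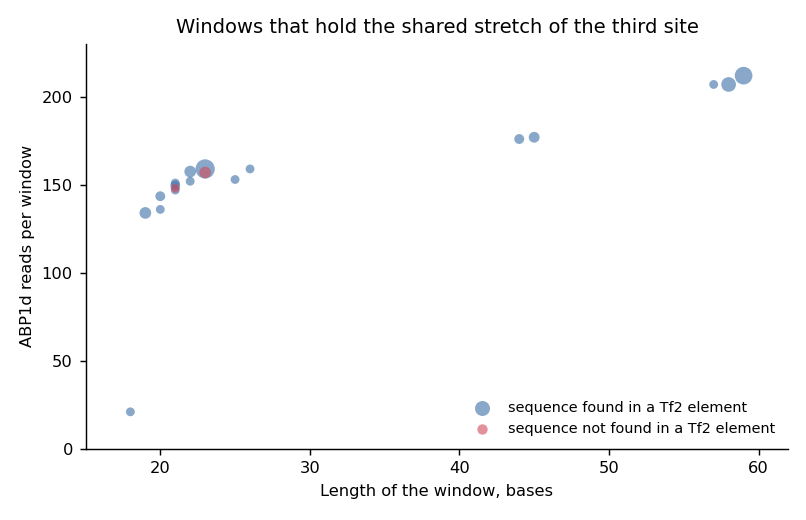
ABP1d reads per window (vertical axis) against window length in bases (horizontal axis) for the sequences at the third place that hold the shared 16 bases. Each point is a distinct sequence, larger for more copies. Reads go from 133 to 135 at 19 bases to 212 at 59 bases, without a steady rise between 22 and 26 bases. The lowest point is the 18-base window with 21 reads.

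At the eighth place, too, the reads went with the sequence a copy keeps. The full 64-base window is printed at the end of the Tf2-1 stretch. It occurs 33 times in the assembly, 13 times in Tf2 elements and 20 times in solitary LTRs, and every copy lay under a window. Solitary LTR windows of exactly this sequence numbered 14 and held 413 or 414 ABP1d reads and 10 WT reads. LTRs that keep only part of it held part of the reads. A window over positions 271 to 305 held 230 or 231 ABP1d and 4 WT reads on 3 LTRs, and a window over positions 286 to 334 held 214 to 218 ABP1d and 6 WT reads on 9 LTRs. The 18-base stretch from 288 to 305 held 21 or 22 ABP1d reads and 0 WT reads on 6 LTRs.

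The longest solitary LTR window reaches past the repeat and is shown because it carries Tf2 body sequence. It lies on LTR47, 10739 bases from the nearest Tf2 gene, at chrI:2941925-2942022 on the minus strand. Capitals mark the 19 bases outside the annotated LTR.

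LTR47: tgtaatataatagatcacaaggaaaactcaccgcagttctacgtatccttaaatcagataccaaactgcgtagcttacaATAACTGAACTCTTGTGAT

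It held 569 ABP1d reads and 11 WT reads, a ratio of 31.4 (17.4 to 63.3), the most reads of any solitary LTR window but LTR191's. The whole LTR47 held 887 and 14 reads. Those are also the counts of 5 of the 25 LTRs beside Tf2 genes. Of the LTRs inside the distance limit of 500 bases, the farthest from a Tf2 gene was LTR148 at 168 bases, with 668 and 12 reads. The next 9, all at 167 bases, held 799 to 887 ABP1d and 14 to 18 WT reads. The LTRs nearest outside, LTR61 at 536 bases and LTR85 at 584 bases, had no window, and the longest stretches they share with Tf2 are 17 and 14 bases.

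The LTR with the most reads does not look like a Tf2 LTR. LTR191, annotated at chrIII:1196131-1196481 and 108 bases from nse1, a gene of the Smc5-Smc6 DNA repair complex, gave no alignment to the Tf2-1 LTR, yet it shares a stretch of 119 bases with the Tf2 body. The annotation's label is therefore not borne out by its sequence, and its values are those of Tf2 body sequence. Its windows with the most reads are printed on the minus strand, first chrIII:1196331-1196368 and then chrIII:1196192-1196224.

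LTR191, 38 bases: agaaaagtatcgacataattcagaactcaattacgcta

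LTR191, 33 bases: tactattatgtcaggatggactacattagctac

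The 38-base window held 895 ABP1d reads and 0 WT reads, at least 181-fold more in ABP1d with the WT count set to 3. The 33-base window held 295 ABP1d reads and 1 WT read, a ratio of 179 (31.9 to 7101). All 6 windows of LTR191 together held 1293 ABP1d reads and 1 WT read, a ratio of 785 (141 to 31043). A second LTR with Tf2 body sequence, LTR170 at chrIII:254350-254629, matched 19.5% of the Tf2-1 LTR and held 201 and 2 reads in 5 windows.

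The LTRs with the most windows were close copies of the Tf2 LTR. LTR223, 340 bases from lsc2, which encodes a subunit of succinyl-CoA ligase, had 10 windows with 568 ABP1d and 8 WT reads. LTR226 and LTR171 had 9 windows each, with 647 and 12 reads and with 517 and 8 reads. There were 3 solitary LTRs that matched all 349 bases of the Tf2-1 LTR, and each held 731 ABP1d and 13 WT reads, a ratio of 34.2 (19.8 to 64.5). Among these were LTR78, 110 bases from coa3, a gene for assembly of cytochrome c oxidase, and LTR134 on chromosome II. LTR127, 172 bases from ubp14, a gene for a ubiquitin protease, held 732 and 13 reads. Per LTR with a window, ABP1d reads ran from 10 through a median of 296 to 1293 and WT reads from 0 through a median of 4 to 45, and 32 of the 113 had no WT read.

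Few windows lay outside the 20-base words shared with Tf2. Of the 13 without such a word (10 distinct sequences), 10 had no WT read, and 3, of 12 to 18 bases, are still found letter for letter in a Tf2 LTR. Their distinct sequences held 370 ABP1d reads and 46 WT reads, a ratio of 4.89 (3.59 to 6.79). A single window held most of these reads. It lies on the valine tRNA gene SPATRNAVAL.01 at chrI:445993-446078 and enters LTR16 only by its last 4 bases, in capitals here.

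LTR16: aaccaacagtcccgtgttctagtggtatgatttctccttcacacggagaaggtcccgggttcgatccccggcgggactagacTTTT

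It held 232 ABP1d and 45 WT reads, a ratio of 3.13 (2.27 to 4.41), the lowest of the windows with WT reads. Without it, the 12 remaining windows held 138 ABP1d reads and 1 WT read over 9 distinct sequences, a ratio of 83.8 (14.8 to 3334). Each of these 12 held 10 to 27 ABP1d reads, and 10 of them had no WT read. Those 10 entered the comparison only through their ABP1d reads, so a high ratio was built in.

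Some windows at the third place differ from the Tf2-1 LTR by named bases, counted from 1 at the first base of the window. Capitals mark the differing bases.

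LTR66: Tctcgttcctcagttcagttatg

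LTR164: cctcgttTcAcagttcagtt

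The sequence of LTR66, at chrI:4140698-4140720, has C1T and was listed on 4 LTRs with 157 ABP1d reads and 0 or 1 WT read, close to the 158 to 160 of the unchanged 23 bases. The sequence of LTR164, at chrIII:108686-108705, has C8T and T10A and was listed on 2 LTRs with 26 ABP1d reads and 1 WT read. Unchanged windows of 20 bases at this place held 136 to 146 ABP1d reads. The mismatches allowed in mapping were not given in the sources used here, so whether these reads came from the LTRs themselves cannot be told.

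The chromosomes had similar shares of LTRs with windows. On chromosome I, 39 of 75 solitary LTRs had windows, 162 in all, on chromosome II 33 of 63 with 123 windows, and on chromosome III 41 of 75 with 179 windows. Within 1000 bases of a tRNA gene, where several retrotransposons of budding yeast insert, all 7 solitary LTRs had a window, against 106 of 206 farther away. For LTR16 that is only the window of the tRNA gene itself, and without it the count is 6 of 7. Their median match to the Tf2-1 LTR was also higher, 77.1% against 47.4%, and its part in the result was not tested. Near wtf genes, the spore killer family with LTRs at its borders, 13 of 28 LTRs had a window, against 100 of 185 elsewhere. Of the 464 windows, 141 also overlap an annotated long noncoding RNA, 2 a protein-coding gene and 1 a tRNA gene. Strand is absent from the values, and reads of either strand are counted together.

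Genes for silencing factors were looked up among the listed windows, which hold small RNA and do not measure the factors themselves. Of 25 genes for silencing factors, among them cbp1, its relatives cbh1 and cbh2, the histone deacetylases clr3 and clr6 and the RNA interference genes ago1, dcr1 and rdp1, only swi6 had a listed window, with 50 ABP1d and 10 WT reads. Swi6 is the heterochromatin protein HP1, and its window is among the 82.9% of all windows that were higher in ABP1d. How many of all genes had a listed window is not given here, so no reading of the silencing genes as a set is made. The cbp1 gene had no window, so the files offer no check of the deletion. The authors' separate lists of regions for each strain, 309 for ABP1d and 190 for WT, held 0 regions on a solitary LTR, so the comparison is the only source of these values.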

How the data were processed

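Small RNA libraries of 2 WT and 2 ABP1d samples were compared as pooled by the authors. The authors deposited 1 RPKM value per strain and window and 1 p-value per window, without headers. The submitters' processing notes name Bowtie 0.12.5. The genome build, the handling of reads with several matches, the choice of windows and the test behind the p-value were not given in the sources used here. Deposited p-values reach 0.0494 and carry no spread between libraries, so no replicate test was possible and they were used only as a filter. The planned count test needed values per library and was not made.

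RPKM times window length gave whole reads (within 1e-06) against totals of 23817270 in ABP1d and 14466014 in WT. What these totals count is not stated, and the depth of each library is unknown. Windows of the comparison held 99.6% and 99.7% of them, with a repeat's reads entered at each copy. Columns were assigned through regions shared with the strain lists (7 of 7 for ABP1d, 124 of 124 for WT). No value column was left unmapped.

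Coordinates were used on ASM294v3. Starts were read as 1-based with the end excluded, because 186 of 252 groups of windows with the same reads and length then held a single sequence, against at most 57 after a shift of 1 to 3 bases. LTRs were aligned to the 3′ LTR of Tf2-1 with BLAST+ 2.17.0 and turned to its strand (11 against their annotation). Ratios are of reads scaled to the totals, with 95% intervals from the exact (Clopper-Pearson) binomial limits of the ABP1d share of a window's reads. They cover counting error only, and a count of 0 was set to 3 reads over the pooled strain. The window set, lists and comparisons were chosen with earlier results of these data known. Named windows were those with the most reads, the highest and lowest ratios, the most copies and no shared word with Tf2. Named LTRs were those with the most windows or reads and those nearest the distance limit. LTR66, LTR164 and LTR170, the windows printed by length, and the positions of the eighth place were chosen after their values were seen. Python 3.11.15 with pandas 2.3.3 and scipy 1.17.1 was used. In a simulation of the 4012 windows every total and 100% of read counts came back, and 96.6% of 3985 intervals contained the true ratio. It drew each window independently, without shared reads or differences between libraries. It therefore checks the calculation only and does not show that the intervals hold for the real windows. Alternatives covered scaling, the floor, filters on reads and p-values, copies, overlap, distance, word length and coordinates.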

Additional observations from a re-analysis of the deposited data

How the results depend on the processing

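Values below depend on scaling, floors and copies, and the cause of each change was not tested beyond the choice itself. No paired analysis was possible because the files hold 1 pooled value per strain, and for the same reason no replicate was left out. Of 116 alternative values of the 7 main results, 75 were labelled the same (within the interval or 1.5 times the count) and 41 moved. Reversal was read for ratios and medians only, and 0 of them reversed. For counts it has no meaning: windows lower in ABP1d went from 0 to 208 with all windows centred, which is labelled moved. The medians have no interval of their own. The 75 include settings that changed no value, such as at least 10 reads or leaving out A/T runs, so 75 is no measure of stability.

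Centring on 5S, snRNA, protein-coding or all windows gave 379, 259, 262 and 247 windows higher and 85, 205, 157 and 208 lower. The median log2 ratio became 1.20, 0.42, 0.47 and 0.36, the summed ratio 12.96, 7.53, 7.81 and 7.26, and the ratio without Tf2 words 2.05, 1.19, 1.24 and 1.15. Only the first of these last ratios had an interval above 1 (1.51 to 2.85). With rRNA repeats and 5S genes left out of the totals, the median was 2.18 and the summed ratio 25.5. A floor of 1 or 0.5 reads gave a median of 3.92 or 4.45.

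With at least 30 reads, 168 windows were left, all higher, 64 of them without WT reads, with a median of 4.78 and a ratio without Tf2 words of 3.13. Each sequence counted a single time left 114 windows, all higher, 61 without WT reads, with a median of 4.07. Windows with the same reads and length counted a single time left 140, all higher, 73 without WT reads, with a median of 4.30. Counting each window gave a summed ratio of 35.7. Requiring 50% of the window inside the LTR gave 36.2 and, without Tf2 words, 77.7, and leaving out tRNA, rRNA, snoRNA and snRNA genes gave 36.3 and 83.8, since both drop the tRNA window. A deposited p of at most 0.001 gave a median of 3.16. Words of 24 bases gave a ratio without Tf2 words of 16.1 over 43 windows. Starts read as 0-based, chosen after seeing the data, gave 17.4 over 25 windows. No A/T run of 15 bases occurred, and the annotation used holds no centromere feature to leave out. Windows without WT reads allow ratios only as bounds, and 26 reads, the median window, cannot fix a fold.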
